A study of Mus musculus with 11 samples.

Results

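NF-κB is a family of dimeric transcription factors, and the genes described here encode its subunits together with proteins that regulate it. Of 10 listed genes, 9 were measured among 22180 genes on the arrays: the subunit genes Rela, Rel, Relb and Nfkb2, the IκB genes Nfkbia, Nfkbie and Bcl3, and the ubiquitin-editing genes Tnfaip3 and Birc3. Nfkb1 was not analysed here. The members were chosen by symbol, and each of the 9 had 1 probe set with a single gene symbol.

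The arrays hold RNA of line 720, a mouse T-ALL (acute lymphoblastic leukaemia of the T lineage) line. It is a single line, which the labels trace to a Tcf12+/- mouse carrying a Tal1 transgene with the Lck promoter, active in the T lineage, so every group shares that genotype. Cells received AI-9-54 at 50 µM (4 arrays, replicates 1 to 4), AI-8-45 at 100 µM (4 arrays, replicates 1 to 4) or AI-7-54 at 100 µM (3 arrays, replicates 1, 3 and 4), each for 8 h. The labels call the compounds Runt domain inhibitors, after the DNA-binding part of the RUNX factors, and give code names only. No untreated or vehicle-treated arrays were analysed here, so each difference sets a compound against another compound. The labels do not say whether replicates were separate cultures, so a p-value here is set by array-to-array spread that could be technical only.

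The T-cell receptor complex genes Cd3e, Cd3d and Cd3g had mean log2 levels of 13.00, 11.78 and 12.98, against a median of 6.91 over all genes, and the coreceptor genes Cd4 and Cd8a lay at 6.20 and 5.68. Of 7 T-lineage markers, 2 passed, both lower after AI-9-54. Both passed against AI-7-54, a comparison that called 14.2% of all genes, 7.29% in that direction. A fit of only the 11090 genes at or above the median level called 3498 there, 1826 of them in that direction. Thy1 also passed against AI-8-45, where 0.600% of all genes passed in that direction. Whether the markers differ from other genes of their level was not tested. Thy1 averaged 10.79 ± 0.08 after AI-9-54, 11.16 ± 0.07 after AI-8-45 and 11.30 ± 0.03 after AI-7-54 (SD, n = 4, 4 and 3), with limma adjusted p of 6.12e-05 against AI-7-54 and 0.00359 against AI-8-45. Ptcra, the pre-T-cell receptor alpha gene, averaged 7.44 ± 0.13 after AI-9-54 and 7.98 ± 0.27 after AI-7-54 (adjusted p 0.00709). The mean level over the 7 markers lay between 9.62 and 9.72 on the AI-9-54 arrays, 9.74 and 9.84 on the AI-8-45 arrays, and 9.79 and 9.92 on the AI-7-54 arrays, and its part in the results below was not tested. The 4 B-lineage markers averaged 4.40 to 6.59 per gene and the 5 myeloid markers 5.32 to 7.01, and 0 of these passed limma's test in any comparison at an adjusted p under 0.05 (1 gene of each list had an unadjusted p under 0.05). The 5 stromal and endothelial markers averaged 6.84 to 11.31, highest for Pecam1, and likewise 0 passed (1 at an unadjusted p under 0.05). Array medians of all probe sets lay between 6.61 and 6.68. The second principal component (19.6% of the variance) put replicates 1 and 2 of every compound at 6.72 to 10.2 and replicates 3 and 4 at -11.4 to -2.24. On the third (11.2%), AI-8-45 replicate 3 lay at -16.3 and the other arrays between -3.82 and 6.51.

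In resting cells IκB proteins bind NF-κB dimers and keep them in the cytoplasm. Receptor signals activate the IKK kinases, which mark IκB for destruction, and the freed dimers enter the nucleus and switch on target genes. Several of those targets encode IκB proteins, ubiquitin editors and NF-κB subunits, so the pathway is wired to feed back on itself. In developing and malignant T cells NF-κB is known for supporting survival downstream of antigen and tumour necrosis factor (TNF) family receptors.

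Promoters of several members are shown here because NF-κB is known to act on some of these genes, whose levels are compared below. Promoter sequences of 300 bases (250 before to 50 after the annotated start) came from RefSeq, build GRCm38.p6, and matched 8 of the 9 members, all but Relb, with 11 windows because some genes have several starts. Both strands were searched for the standard degenerate NF-κB motif and for the RUNX core TGTGGT. At least 1 NF-κB match was present for 6 of 8 members (8 of 11 windows), against 8.46% of all 32851 promoter windows in the table. Rela and Birc3 held no match in these windows. The RUNX letters were found in 1 of 11 member windows, that of Rel, against 16.8% of all windows. A match describes letters and does not show binding. In the windows of the 5 members printed here, capitals mark NF-κB matches, and also the RUNX match TGTGGT in Rel. They are Nfkbie (chr17:45555450-45555749, plus strand), Bcl3 (chr7:19822706-19823005, minus strand), the most upstream of 3 Nfkb2 windows (chr19:46304487-46304786, plus strand), Nfkbia (chr12:55492598-55492897, minus strand) and Rel (chr11:23770920-23771219, minus strand), each 5′ to 3′ along its gene.
Nfkbie: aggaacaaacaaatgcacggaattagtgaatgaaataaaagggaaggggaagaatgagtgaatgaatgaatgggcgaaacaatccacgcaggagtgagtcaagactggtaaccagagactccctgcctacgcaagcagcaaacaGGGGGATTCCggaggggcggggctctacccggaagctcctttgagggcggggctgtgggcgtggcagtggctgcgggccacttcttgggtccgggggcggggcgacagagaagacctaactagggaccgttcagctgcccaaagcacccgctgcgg
Bcl3: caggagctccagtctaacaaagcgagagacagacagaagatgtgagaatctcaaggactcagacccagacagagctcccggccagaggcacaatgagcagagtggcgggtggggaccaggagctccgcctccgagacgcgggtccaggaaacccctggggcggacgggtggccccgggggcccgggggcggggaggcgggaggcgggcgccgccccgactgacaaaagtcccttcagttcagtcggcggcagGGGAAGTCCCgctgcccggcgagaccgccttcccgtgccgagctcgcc
Nfkb2: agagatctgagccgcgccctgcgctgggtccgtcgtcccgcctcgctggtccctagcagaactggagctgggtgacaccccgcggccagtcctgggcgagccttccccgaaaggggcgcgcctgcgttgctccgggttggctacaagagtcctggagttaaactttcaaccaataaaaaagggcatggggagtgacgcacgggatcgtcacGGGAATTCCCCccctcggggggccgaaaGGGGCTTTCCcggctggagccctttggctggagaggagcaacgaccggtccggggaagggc
Nfkbia: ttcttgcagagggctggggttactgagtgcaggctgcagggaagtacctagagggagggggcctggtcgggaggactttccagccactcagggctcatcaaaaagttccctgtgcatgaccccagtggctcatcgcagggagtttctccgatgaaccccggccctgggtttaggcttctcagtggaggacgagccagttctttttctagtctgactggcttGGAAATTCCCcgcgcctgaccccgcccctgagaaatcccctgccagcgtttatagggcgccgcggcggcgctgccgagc
Rel: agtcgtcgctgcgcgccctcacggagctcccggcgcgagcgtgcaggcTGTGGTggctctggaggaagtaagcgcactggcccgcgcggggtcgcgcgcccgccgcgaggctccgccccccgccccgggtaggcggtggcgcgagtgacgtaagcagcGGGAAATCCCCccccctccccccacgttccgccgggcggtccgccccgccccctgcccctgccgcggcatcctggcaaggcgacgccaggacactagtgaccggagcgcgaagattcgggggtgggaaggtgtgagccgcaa
The Nfkbie match GGGGGATTCC spans positions -106 to -97 from the start, the Nfkbia match GGAAATTCCC positions -29 to -20, and the Bcl3 match GGGAAGTCCC lies after the start, at 3 to 12. The Nfkb2 window holds overlapping matches at -39 to -30 and -38 to -29 and a further match at -11 to -2, and Rel has overlapping matches at -92 to -83 and -91 to -82. The other Nfkb2 windows, which overlap each other, share the match GGGACTTTCC.

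Nfkbie showed the largest difference of the 9 members in every comparison, and was the only called member that was lower. It encodes IκBε, an inhibitor known to retain dimers that contain the REL and RELA proteins. Its log2 levels were 9.85, 9.90, 9.66 and 9.79 on the AI-9-54 arrays, 10.41, 10.34, 10.33 and 10.39 on the AI-8-45 arrays, and 10.77, 10.85 and 10.83 on the AI-7-54 arrays. The 3 groups did not overlap, with AI-9-54 lowest and AI-7-54 highest. At the matched dose of 100 µM, Nfkbie was 1.37-fold lower after AI-8-45 than after AI-7-54 (log2 difference -0.45 ± 0.06, SE, limma adjusted p 0.000675). After AI-9-54 at 50 µM it was 2.03-fold lower than after AI-7-54 at 100 µM (-1.02 ± 0.06, adjusted p 7.69e-07) and 1.48-fold lower than after AI-8-45 at 100 µM (-0.57 ± 0.05, adjusted p 0.000258). Between AI-9-54 and AI-7-54 only 10 of 22180 genes had a smaller p, and 21 had a more negative log2 difference. Within replicates 1 and 2 the differences were -0.39, -0.89 and -0.50 in the same order, and within replicates 3 and 4 they were -0.48, -1.12 and -0.64. The call was kept on leaving out each of the 11 arrays in turn, with adjusted p up to 0.00625.

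**Figure D1:**
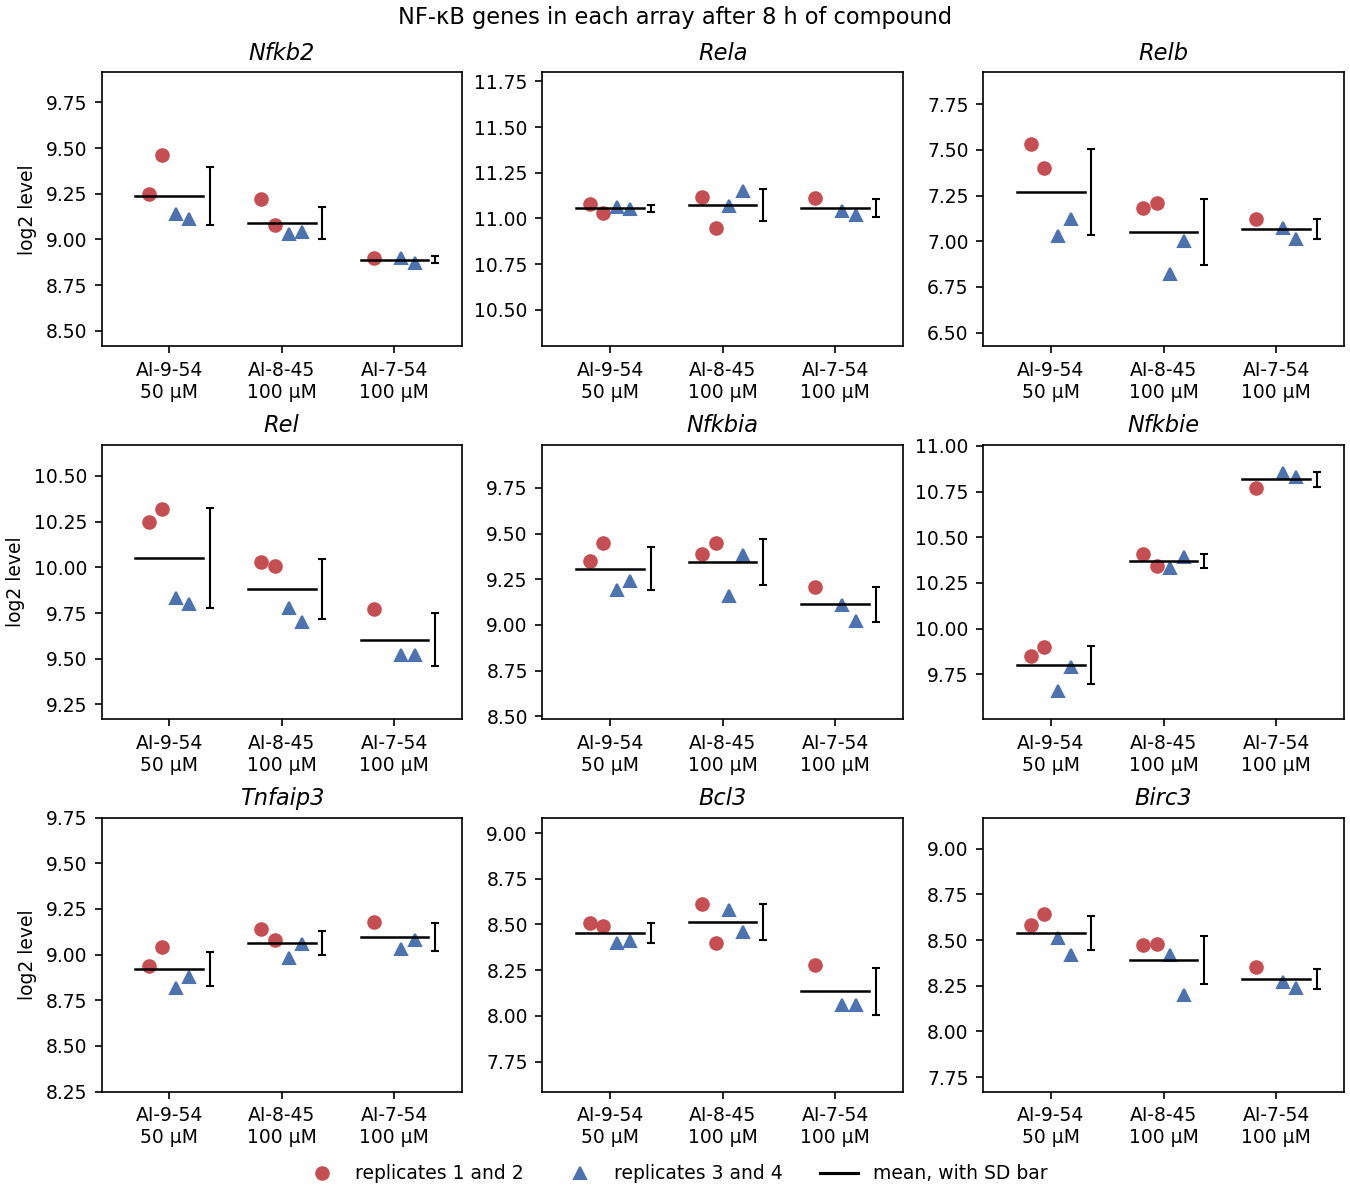
Log2 level (y axis, the same span of log2 units in every panel) of the 9 measured members on each array, by compound and dose (x axis). Points are arrays, circles for replicates 1 and 2 and triangles for replicates 3 and 4; the horizontal line is the group mean and the bar its SD. Nfkbie lies between 9.66 and 9.90 after AI-9-54 and between 10.77 and 10.85 after AI-7-54, while Rela stays within 10.95 to 11.15 on all arrays.

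Nfkbia, the gene of the best known IκB protein and a rapid NF-κB target, did not go with Nfkbie. Its levels were 9.35, 9.45, 9.19 and 9.24 after AI-9-54, 9.39, 9.45, 9.16 and 9.38 after AI-8-45, and 9.21, 9.11 and 9.02 after AI-7-54. The groups overlapped through replicate 3 of AI-9-54 and of AI-8-45, and no comparison passed the test. The log2 difference was 0.23 between AI-8-45 and AI-7-54 (95% interval 0.06 to 0.40, adjusted p 0.129) and 0.20 between AI-9-54 and AI-7-54 (0.02 to 0.37, adjusted p 0.14). Without AI-8-45 replicate 3, the array that stood apart, the first of these passed (0.29, limma adjusted p 0.0423), and it also passed in a model with a term for replicates 1 and 2 against 3 and 4, called the replicate set here (0.20, adjusted p 0.0408). A fit with array weights passed it as well (0.28, adjusted p 0.0295). Between AI-9-54 and AI-8-45 the interval was -0.19 to 0.12.

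Bcl3 encodes an atypical nuclear IκB protein that can act as a coactivator with homodimers of the short NF-κB subunits. It rose after both compounds relative to AI-7-54. Levels were 8.51, 8.49, 8.40 and 8.41 after AI-9-54, 8.61, 8.40, 8.58 and 8.46 after AI-8-45, and 8.28, 8.06 and 8.06 after AI-7-54. All 8 arrays of the first 2 compounds lay above all 3 of the last, with AI-7-54 replicate 1 the highest of its group. The fold was 1.30 for AI-8-45 over AI-7-54 at the same dose (log2 difference 0.38 ± 0.07, SE, limma adjusted p 0.00669) and 1.25 for AI-9-54 over AI-7-54 (0.32 ± 0.07, adjusted p 0.0073). AI-9-54 and AI-8-45 were not told apart, with a difference of -0.06 and an interval of -0.20 to 0.08. Both calls were kept without any 1 of the 11 arrays (adjusted p up to 0.0453 and 0.0436). Among replicates 1 and 2 alone (1 AI-7-54 array) the differences were 0.23 and 0.22 and missed the threshold (adjusted p 0.481 and 0.329).

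Among the subunits, Nfkb2 and Rel rose after AI-9-54 relative to AI-7-54, and Rela and Relb did not pass in any comparison. Nfkb2 encodes the precursor that is processed in the non-canonical branch of the pathway. It had 9.25, 9.46, 9.14 and 9.11 after AI-9-54, 9.22, 9.08, 9.03 and 9.04 after AI-8-45, and 8.90, 8.90 and 8.87 after AI-7-54. The AI-7-54 arrays lay together below all others, and AI-9-54 overlapped with AI-8-45. The rise of AI-9-54 over AI-7-54 was 1.28-fold (log2 difference 0.35 ± 0.08, SE, limma adjusted p 0.00808), and it passed with each array left out in turn (adjusted p up to 0.0368). Within replicates 1 and 2 the difference was 0.46 and missed the threshold (adjusted p 0.117). The differences of 0.20 between AI-8-45 and AI-7-54 (interval 0.04 to 0.37, adjusted p 0.181) and of 0.15 between AI-9-54 and AI-8-45 (adjusted p 0.449) did not pass.

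Rel encodes c-Rel, the subunit best known from activated lymphocytes. Its levels were 10.25, 10.32, 9.83 and 9.80 after AI-9-54, 10.03, 10.01, 9.78 and 9.70 after AI-8-45, and 9.77, 9.52 and 9.52 after AI-7-54. In each compound group replicates 1 and 2 were higher than replicates 3 and 4, by 0.47 in AI-9-54, 0.28 in AI-8-45 and 0.25 in AI-7-54. AI-9-54 stood 1.37-fold above AI-7-54 (log2 difference 0.45 ± 0.13, SE, limma adjusted p 0.0409). That call ended without AI-7-54 replicate 3 (adjusted p 0.152), AI-7-54 replicate 4 (0.147), AI-9-54 replicate 2 (0.106), AI-9-54 replicate 1 (0.103) or AI-8-45 replicate 3 (0.0507). With a term for the set the difference was 0.39 (adjusted p 0.000281), and AI-8-45 was then also above AI-7-54 (0.23, adjusted p 0.0207, against 0.28 and adjusted p 0.317 without the set). Within the sets the difference between AI-9-54 and AI-7-54 was 0.52 for replicates 1 and 2 and 0.30 for replicates 3 and 4.

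Rela encodes the main transactivating subunit and lay at 11.08, 11.03, 11.06 and 11.05 after AI-9-54, 11.12, 10.95, 11.07 and 11.15 after AI-8-45, and 11.11, 11.04 and 11.02 after AI-7-54. The groups overlapped fully. Its 3 intervals ran from -0.12 to 0.13 in all, the narrowest bounds of the 9 members. Relb, whose protein pairs with the product of Nfkb2, had 7.53, 7.40, 7.03 and 7.12 after AI-9-54, 7.18, 7.21, 6.82 and 7.00 after AI-8-45, and 7.12, 7.07 and 7.01 after AI-7-54. The groups overlapped, and replicates 1 and 2 were the higher in each of them. The difference between AI-9-54 and AI-7-54 was 0.20 (interval -0.06 to 0.46, adjusted p 0.353), made of 0.35 within replicates 1 and 2 and 0.03 within replicates 3 and 4.

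Of the ubiquitin-editing members, Birc3 passed in 1 comparison and Tnfaip3 in none. Tnfaip3 encodes an editing enzyme that ends TNF receptor and antigen receptor signals. It had 8.94, 9.04, 8.82 and 8.88 after AI-9-54, 9.14, 9.08, 8.98 and 9.06 after AI-8-45, and 9.18, 9.03 and 9.08 after AI-7-54. AI-9-54 tended to the low end, but replicate 2 of it overlapped with both other groups. The log2 difference of -0.18 from AI-7-54 did not pass (interval -0.31 to -0.05, limma adjusted p 0.066). It passed with the replicate number as a block (-0.20, adjusted p 0.0174) and with a term for the set (-0.20, adjusted p 0.00705). The same held without AI-9-54 replicate 2 (-0.22, adjusted p 0.0292) and among genes at or above the median level (-0.18, adjusted p 0.0368). Birc3 encodes an inhibitor-of-apoptosis ubiquitin ligase of TNF receptor complexes, and is itself a known NF-κB target. It had 8.58, 8.64, 8.51 and 8.42 after AI-9-54, 8.47, 8.48, 8.42 and 8.20 after AI-8-45, and 8.35, 8.27 and 8.24 after AI-7-54. All AI-9-54 arrays lay above all AI-7-54 arrays, and AI-8-45 spanned the range of AI-7-54. Birc3 rose 1.19-fold after AI-9-54 relative to AI-7-54 (0.25 ± 0.07, SE, adjusted p 0.0376). The call ended without replicate 1, 3 or 4 of AI-7-54 (adjusted p 0.0504, 0.124 and 0.138) or replicate 1, 2 or 3 of AI-9-54 (0.0856, 0.102 and 0.0604), and within either set (0.26, adjusted p 0.11, for replicates 1 and 2 and 0.21, adjusted p 0.181, for replicates 3 and 4).

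**Figure D2:**
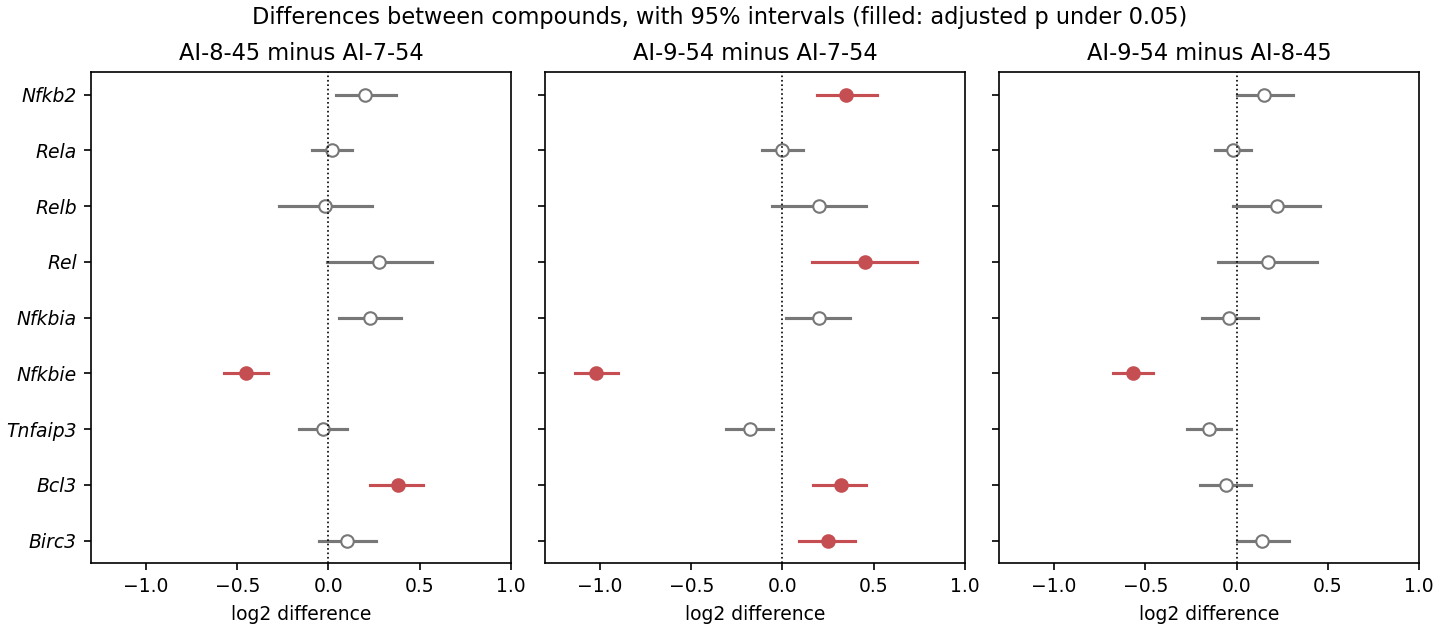
Log2 differences (x axis) of the 9 members (y axis) in the 3 comparisons, with 95% intervals from limma; filled points passed at an adjusted p under 0.05. Nfkbie lies left of 0 in every panel (-0.45, -1.02 and -0.57), and Bcl3 lies right of 0 in both comparisons with AI-7-54.

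Counted over the members, 2 of 9 passed between AI-8-45 and AI-7-54 at the same dose, Bcl3 higher and Nfkbie lower, where 5.66% of all genes passed (2.13% higher and 3.53% lower). Between AI-9-54 and AI-7-54, whose doses differ, 5 of 9 passed, with Rel, Nfkb2, Bcl3 and Birc3 higher and Nfkbie lower, where 14.2% of all genes passed (6.87% higher and 7.29% lower). Between AI-9-54 and AI-8-45 Nfkbie alone passed, lower, where 1.31% of all genes did (0.708% higher and 0.600% lower). A fit of only the 11090 genes at or above the median level held all 9 members. In that fit 1688, 3498 and 436 genes passed in the 3 comparisons, and 2, 6 and 1 members. The compound groups did not overlap for 3, 5 and 1 of the 9 members in these comparisons, against 15.9%, 23.2% and 6.67% of all genes. The median log2 difference of the members was 0.10, 0.20 and -0.02, and that of all genes was 0.00 in each. The comparisons share arrays, so their values are not independent of each other. The members were chosen with earlier results of these data known, so the counts only describe them.

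Most members also moved with the replicate set. Replicates 1 and 2 both lay above replicates 3 and 4 for 8 of 9 members after AI-9-54, all but Rela, where 23.3% of all genes did so, and for 6 of 9 after AI-8-45, where 15.7% did. They lay below for 0 of 9 members in both groups, where 24.2% of all genes did so after AI-9-54 and 19.2% after AI-8-45. With AI-7-54, which has 1 array on that side, 7 of 9 were above and 1 below, where 31% of genes were above and 39.9% below. In the model with the set, replicates 3 and 4 were lower than replicates 1 and 2 by a log2 difference of -0.34 for Rel, -0.27 for Relb, -0.16 for Nfkbia and -0.14 for Birc3, while Nfkbie differed by -0.04 and Rela by 0.01. The labels do not say what the replicate numbers stand for, and their part in the members' levels was not tested. With the set in the model, 4 of 9 members passed between AI-8-45 and AI-7-54 (Rel and Nfkbia in addition), where 8.79% of all genes passed, and 6 of 9 between AI-9-54 and AI-7-54 (Tnfaip3 in addition), where 18.2% did. With the replicate number as a block in its place, Rel and Nfkbia did not pass between AI-8-45 and AI-7-54 (limma adjusted p 0.0643 and 0.0932).

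**Figure D3:**
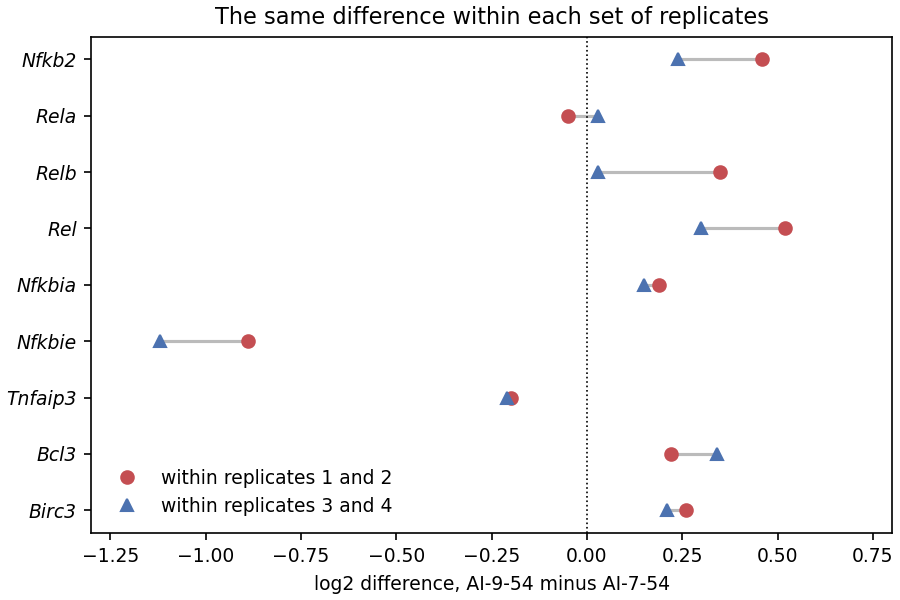
Log2 difference between AI-9-54 and AI-7-54 (x axis) of each member (y axis), computed within replicates 1 and 2 (circles, 1 AI-7-54 array) and within replicates 3 and 4 (triangles). Nfkbie is at -0.89 and -1.12, Relb at 0.35 and 0.03, and only Rela has opposite signs (-0.05 and 0.03).

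Other genes of the pathway were taken from 6 role lists with 61 genes, of which 56 were measured. The lists too were chosen with earlier results of these data known. After AI-8-45, 5 of 56 were higher than after AI-7-54 and 0 lower by limma (18 had an unadjusted p under 0.05 in either direction), where 2.13% of all genes were higher and 3.53% lower. The number called was 2 without AI-7-54 replicate 3 or 4 and 3 without AI-8-45 replicate 1. After AI-9-54, 14 were higher and 1 lower than after AI-7-54, where 6.87% of all genes were higher and 7.29% lower, and 11 to 14 passed in either direction with an array left out. Their median log2 difference was 0.06 in both comparisons, against 0.00 over all genes. A fit of only the 11090 genes at or above the median level held 44 of the 56. In that fit 9 were higher and 0 lower after AI-8-45 than after AI-7-54, where 650 genes were higher and 1038 lower. After AI-9-54, 16 were higher and 2 lower, where 1672 genes were higher and 1826 lower. Whether pathway genes differ from other genes of their level was not tested. Between AI-9-54 and AI-8-45 only Malt1 passed, higher at 8.90 ± 0.07 against 8.64 ± 0.07 (SD, n = 4 each), a log2 difference of 0.26 (limma adjusted p 0.0279). Malt1 encodes the protease of the antigen receptor branch, and its call ended without replicate 2, 3 or 4 of either compound (adjusted p 0.0608 to 0.0827).

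Receptor genes were higher in 3 of 10 cases after AI-9-54 and in 2 of 10 after AI-8-45, relative to AI-7-54, and lower in 0 (limma, with 3 in each comparison at an unadjusted p under 0.05). Of all genes, 6.87% were higher after AI-9-54 and 2.13% after AI-8-45 by the same test. Tnfrsf1b, a TNF receptor gene, averaged 9.34 ± 0.15 after AI-9-54 and 8.56 ± 0.23 after AI-7-54 (SD, n = 4 and 3), a log2 difference of 0.77 (limma adjusted p 0.000533). Replicates 1 and 2 alone gave 0.40, which missed the threshold (adjusted p 0.121), and replicates 3 and 4 gave 1.02. After AI-8-45 it was at 9.01 ± 0.13, a difference of 0.44 from AI-7-54 (adjusted p 0.0346). That call ended without AI-7-54 replicate 3 or 4, or AI-8-45 replicate 1, 2 or 3 (adjusted p 0.0542 to 0.163). The costimulatory receptor gene Tnfrsf9 was higher after AI-9-54 by 0.52 (adjusted p 0.00413), with 0.19 within replicates 1 and 2 (adjusted p 0.19) and 0.73 within replicates 3 and 4. Tnfrsf1a, the other TNF receptor gene, was higher by 0.25 after AI-9-54 (adjusted p 0.00445) and by 0.24 after AI-8-45 (adjusted p 0.0153), and the second call ended without AI-7-54 replicate 3 or 4 (0.0695 and 0.063). Both Tnfrsf1a calls were lost within either set. Replicates 3 and 4 gave 0.25 for AI-9-54 (limma adjusted p 0.0519) and 0.22 for AI-8-45 (adjusted p 0.123). Replicates 1 and 2, with 1 AI-7-54 array, gave 0.25 for each compound. The median log2 difference of the 10 receptor genes was 0.09 after AI-9-54 and 0.05 after AI-8-45.

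Of 15 adaptors and ubiquitin editors, 2 were higher and 0 lower after each of AI-9-54 and AI-8-45 relative to AI-7-54 (limma, with 6 and 3 at an unadjusted p under 0.05). Over all genes, 6.87% were higher and 7.29% lower after AI-9-54, and 2.13% higher and 3.53% lower after AI-8-45. The same shares apply to the antigen receptor and IKK counts below. Cyld, which encodes a deubiquitinase that restrains the pathway, averaged 9.47 ± 0.07 after AI-9-54, 9.33 ± 0.04 after AI-8-45 and 9.03 ± 0.04 after AI-7-54 (SD, n = 4, 4 and 3). Its log2 difference from AI-7-54 was 0.44 for AI-9-54 (adjusted p 7.71e-05) and 0.30 for AI-8-45 (adjusted p 0.00347), and both calls were kept with each array left out in turn. Within replicates 1 and 2 both missed the threshold (0.47, adjusted p 0.067, for AI-9-54 and 0.33, adjusted p 0.278, for AI-8-45), as did AI-8-45 within replicates 3 and 4 (0.27, adjusted p 0.0666). Birc2, a ubiquitin ligase gene related to Birc3, was higher by 0.35 after AI-9-54 (adjusted p 0.00407) and by 0.31 after AI-8-45 (adjusted p 0.0182), a call that ended without AI-7-54 replicate 1, 3 or 4 or AI-8-45 replicate 1 (0.0522 to 0.0738). Both Birc2 calls were lost within either set. Replicates 3 and 4 gave 0.24 for AI-9-54 (limma adjusted p 0.0917) and 0.26 for AI-8-45 (adjusted p 0.117). Replicates 1 and 2, with 1 AI-7-54 array, gave 0.47 and 0.37. Of 3 antigen receptor branch genes, 2 were higher after AI-9-54 and 1 after AI-8-45. Prkcq, the kinase gene at the top of that branch, was higher by 0.20 after AI-9-54 (adjusted p 0.01) and by 0.26 after AI-8-45 (adjusted p 0.0058), and the first of these ended without AI-7-54 replicate 3 or 4 (0.0539 and 0.0504). Malt1 was higher by 0.24 after AI-9-54 (adjusted p 0.00891). Within replicates 3 and 4 that Malt1 call was lost (0.27, limma adjusted p 0.0513), as was that of Prkcq after AI-8-45 (0.29, adjusted p 0.057). Within replicates 1 and 2 (1 AI-7-54 array) these calls and that of Prkcq after AI-9-54 were lost too. The differences there were 0.22 for Malt1, 0.20 for Prkcq after AI-8-45 and 0.11 for Prkcq after AI-9-54. Of 8 IKK complex and kinase genes, 2 were higher and 0 lower after AI-9-54, and 0 passed after AI-8-45 (2 at an unadjusted p under 0.05 by limma). The higher ones were the kinase gene Tbk1 (0.25, limma adjusted p 0.00154) and Tab2, which encodes an adaptor of the TAK1 kinase (0.12, adjusted p 0.0453). The call of Tbk1 was lost within replicates 1 and 2 (0.25, 1 AI-7-54 array). That of Tab2 was lost within either set (0.13 for replicates 1 and 2 and 0.12 for replicates 3 and 4). The call of Tab2 ended with the replicate number as a block (adjusted p 0.0834), with array medians centred (0.146) and in all but 1 case with an array left out (0.0535 to 0.14). The other IκB genes (3 measured) did not pass in any comparison, with differences from AI-7-54 of -0.12 to 0.14 after AI-9-54 and -0.13 to 0.13 after AI-8-45. Their values lie far from the -1.02 and -0.45 of Nfkbie.

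Of 17 known NF-κB target genes, 5 were higher and 1 lower after AI-9-54 relative to AI-7-54, where 6.87% of all genes were higher and 7.29% lower. The other 11 did not pass, and the median log2 difference of the 17 genes was 0.06. The higher ones included Ltb, the lymphotoxin beta gene (9.81 ± 0.30 against 9.11 ± 0.10, SD, a log2 difference of 0.70, adjusted p 0.0116), the interleukin-2 receptor alpha gene Il2ra (9.70 ± 0.13 against 9.10 ± 0.12, difference 0.59, adjusted p 0.00086) and the transcription factor gene Irf1 (9.78 ± 0.04 against 9.25 ± 0.18, difference 0.53, adjusted p 0.00153). These 3 calls were kept with each array left out in turn, but missed the threshold within replicates 1 and 2 (differences of 0.56, 0.56 and 0.35, adjusted p 0.0516, 0.057 and 0.0955). The other 2 were Gadd45b, a stress response gene (0.42, adjusted p 0.0253), and Cflar, an inhibitor of caspase activation (0.33, adjusted p 0.00296). The call of Gadd45b ended without AI-7-54 replicate 3 or 4 or AI-9-54 replicate 2 or 3 (adjusted p 0.0552 to 0.113). That call was also lost within either set, at 0.42 for replicates 3 and 4 (limma adjusted p 0.0925) and 0.33 for replicates 1 and 2 (1 AI-7-54 array). The call of Cflar was lost within replicates 1 and 2 (0.25). Sod2, the mitochondrial superoxide dismutase gene, was the lower one at -0.29 (adjusted p 0.0438), a call kept in 2 of 11 cases with an array left out: it ended without any AI-7-54 array, any AI-8-45 array, or AI-9-54 replicate 1 or 2 (adjusted p 0.0512 to 0.171). After AI-8-45 at the dose of AI-7-54, 0 of 17 passed by limma, while 7 had an unadjusted p under 0.05. With a term for the set, 6 of 17 were higher and 1 lower in each of the comparisons with AI-7-54, where 3.59% of all genes were higher and 5.19% lower for AI-8-45, and 8.99% higher and 9.21% lower for AI-9-54.

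**Figure D4:**
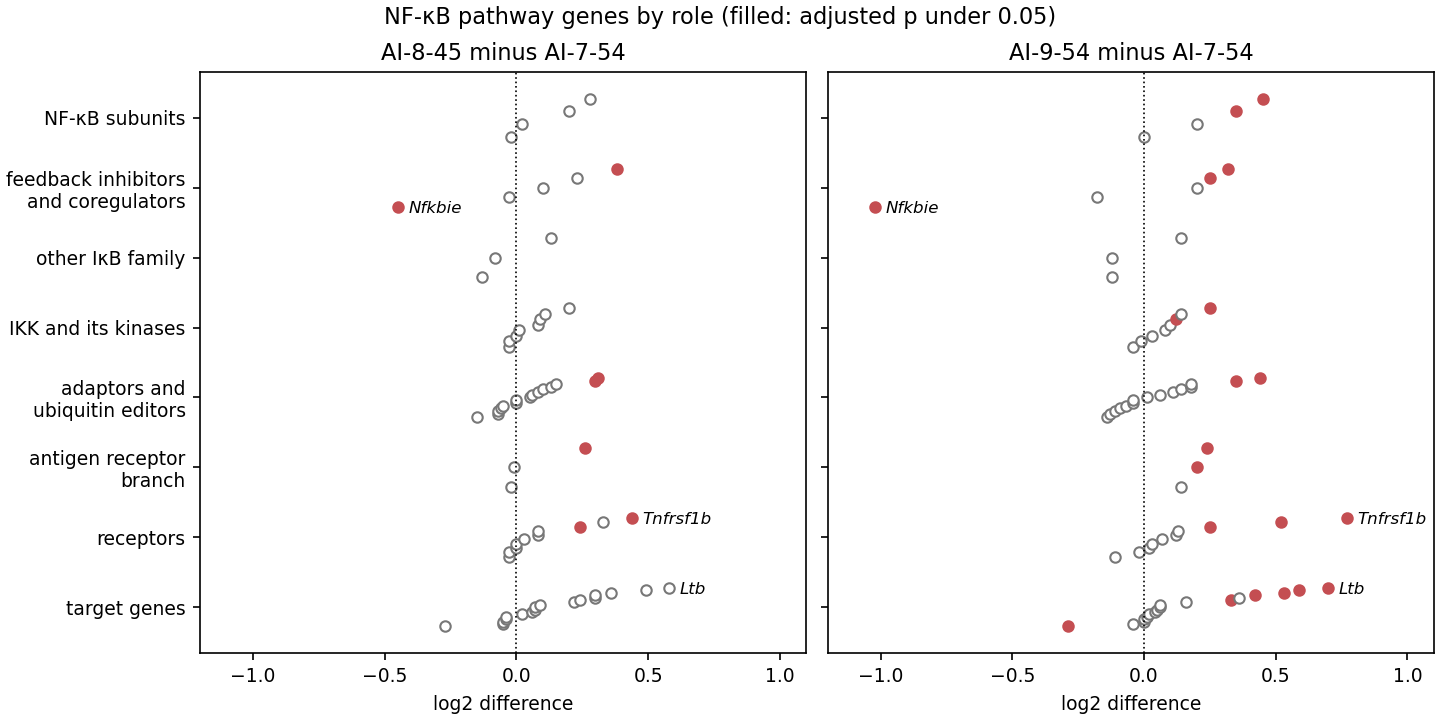
Log2 differences (x axis) of the measured members and pathway genes, a point per gene, by role (y axis) in the comparisons of AI-8-45 and of AI-9-54 with AI-7-54; filled points passed at an adjusted p under 0.05. Nfkbie lies apart on the low side at -0.45 and -1.02. On the high side, Tnfrsf1b (0.77) and Ltb (0.70) have the largest differences after AI-9-54. After AI-8-45 the largest are Ltb (0.58) and the target gene Cxcl10 (0.49), neither of which passed, and then Tnfrsf1b (0.44).

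The members whose group means spanned most were Nfkbie (1.02 log2 units) and Rel (0.45). Over the 11 arrays the genes whose levels followed Nfkbie most closely were Lig4 (Pearson r 0.991), Prss57 (0.990), Urb2 (0.980), Usp10 (0.978) and Slc29a1 (0.974). All 5 were ordered as Nfkbie was, for instance Lig4, a DNA end-joining ligase gene, at a mean of 8.90 after AI-9-54, 9.38 after AI-8-45 and 9.67 after AI-7-54. The closest to Rel were Prdm9 (0.992), Rfesd (0.990), Erbin (0.983), Scamp1 (0.978) and Prkag1 (0.975). These coefficients describe arrays that share compound groups and replicate sets. They were by choice the highest among the 22180 genes once predicted, clone and small RNA symbols were left out.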

How the data were processed

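RNA was measured on 11 single-colour arrays. The authors deposited 1 log2 value per probe set and array (3.23 to 13.8). Per the submitters' processing notes the tools were RMA and Partek 6.6, and the log2 scale was read from the range of the values. No build for the array annotation is named in the sources, so no array coordinates are given. The table has 41345 probe sets, 23521 with a single symbol, 1814 with several and 16010 unnamed here. Entrez identifiers gave current symbols (23328 found, GRCm38.p6), and the probe set of highest mean stood for each of 22180 genes. No detection level was used, so a dim signal is not an absence, and precision is limited by how few arrays there are.

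All 11 arrays entered 1 limma 3.58.1 model in R 4.3.3 (group means, lmFit, contrasts.fit, eBayes, 8 residual and 4.14 prior degrees of freedom). Tests were two-sided, with Benjamini-Hochberg adjustment over all genes of a comparison and calls at an adjusted p under 0.05. Intervals are unadjusted 95% intervals. The fit was tested on simulated data. Named genes are all measured members, up to 6 called pathway genes per comparison and direction by size of difference, and the 5 genes most correlated with each of the 2 members of widest group means, leaving out predicted, clone and small RNA symbols. Gadd45b, Cflar, Tbk1, Tab2, and the AI-9-54 values of Birc2, Tnfrsf1a, Malt1 and Prkcq relative to AI-7-54, were added after their values were seen. Members and lists were chosen with earlier results of these data known. Deviations of same-numbered arrays from their group means correlated at 0.14, 0.16 and 0.12 between AI-9-54 and AI-7-54 (replicates 1, 3 and 4). The highest with another number were 0.01, 0.04 and 0.24. Same-numbered arrays of AI-8-45 and AI-7-54 correlated at -0.02 to 0.45, and those of AI-9-54 and AI-8-45 at 0.07 to 0.36. Another number gave up to 0.31 and 0.49 there. Whether numbers mark pairs is not settled by these values, and the main model did not pair arrays. Alternatives were the replicate number as a block, the replicate set as a term or each set alone, each array left out, the groups compared alone, 2 other scalings, 2 dim-gene filters, averaged probe sets, an intensity trend and array weights. Figures used matplotlib 3.10.9.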

Additional observations from a re-analysis of the deposited data

Results flagged for a closer look

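Each member was checked on the AI-9-54 and AI-8-45 arrays (18 groups of 4) for an array lying far from the other 3, by Dixon's ratio at its 95% critical value. None of the 18 groups held such an array.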

How the results depend on the processing

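The call of Nfkbie between AI-9-54 and AI-7-54 held under every alternative run. Its other 2 calls were lost within replicates 1 and 2 only, at differences of -0.39 (AI-8-45 and AI-7-54) and -0.50 (AI-9-54 and AI-8-45). The number of members called moved by over 1.5 times under few settings. With a term for the replicate set it was 4 between AI-8-45 and AI-7-54, against 2. Within replicates 1 and 2 it was 0 there by limma (3 at an unadjusted p under 0.05), 2 between AI-9-54 and AI-7-54, against 5, and 0 between AI-9-54 and AI-8-45 (4 at an unadjusted p under 0.05), against 1. With each array left out it was 2 to 3, 3 to 5 and 1 to 1, lowest for AI-9-54 against AI-7-54 without AI-7-54 replicate 3 or 4 or AI-9-54 replicate 1. Quantile normalization ended the call of Birc3 (adjusted p 0.0591), and fitting only the groups compared ended that of Rel (adjusted p 0.0715).

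Members with differences near 0, none of them called, changed sign. Between AI-8-45 and AI-7-54, Rela was at 0.00 with array medians centred, -0.07 within replicates 1 and 2 and -0.01 to 0.06 with an array left out. Relb was at 0.03 with array weights, 0.08 within replicates 1 and 2 and -0.07 to 0.06 with an array left out, and Tnfaip3 at -0.07 to 0.01. Between AI-9-54 and AI-7-54, Rela was at -0.02 with medians centred, -0.05 within replicates 1 and 2 and -0.02 to 0.03 with an array left out. Between AI-9-54 and AI-8-45, Rela was at 0.02 within replicates 1 and 2 and -0.06 to 0.01 with an array left out, and Nfkbia at -0.10 to 0.00.

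Over all genes, limma called 1255 between AI-8-45 and AI-7-54, and 1949 with a term for the set, 2 and 613 within replicates 1 and 2 and within 3 and 4, and 540 to 1229 with an array left out. Between AI-9-54 and AI-7-54 it called 3139, 4036 with the set, 593 within replicates 1 and 2, and 2103 to 3290 with an array left out. Between AI-9-54 and AI-8-45 it called 290, and 436 among genes at or above the median level, 517 with the replicate block, 816 with the replicate set, 6 and 143 within the sets, 141 with only the groups compared and 128 to 257 with an array left out. With the replicate number as a block (paired fit), 2, 6 and 1 members were called. It changed the call of Tnfaip3 between AI-9-54 and AI-7-54 and of no other member. Pathway genes called between AI-8-45 and AI-7-54 numbered 5, and 8 with quantile normalization, 3 with medians centred, 9 among genes at or above the median level, 13 with array weights, 11 with the replicate block, 12 with the replicate set, 0 (15 at an unadjusted p under 0.05 by limma) and 2 within the sets. With an array left out they numbered 2 to 7. They numbered 15 between AI-9-54 and AI-7-54, and 1 and 9 within the sets. Between AI-9-54 and AI-8-45 the count of 1 became 3 with the block, 6 with the set, and 0 with medians centred, within replicates 1 and 2 or with only the groups compared (11, 9 and 10 at an unadjusted p under 0.05). Centring array medians ended the calls of Tnfrsf1b and Tnfrsf1a between AI-8-45 and AI-7-54 (adjusted p 0.0573 and 0.0505) and of Malt1 between AI-9-54 and AI-8-45 (0.0678), and quantile normalization that of Sod2 (0.0554). The cause of these changes was not tested, but the fits within a set hold fewer arrays.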
